A study of Mus musculus with 5 samples.

Results

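RNA polymerase II (Pol II), the enzyme that transcribes protein-coding genes, was mapped near transcription start sites in neuronal nuclei of the mouse striatum. The data are the complete list of regions that the authors obtained with the Pol II antibody (Abcam AB5408) over an input library, and every line of that list was taken. Its 11683 lines hold 7799 different regions, out of 38941 in the 4 antibody lists of the study, and name 9164 gene symbols. The nuclei came from striata of C57BL/6 mice aged 8 weeks and were sorted on NeuN. By label they are medium spiny neurons, which are GABAergic and project out of the striatum, but NeuN marks neurons in general. The same kind of nuclei gave the H3K4me3, H3K27ac and H3K27me3 lists used here for comparison, all without any treatment named in the labels. Each antibody and the input had 1 library, so nothing here has a replicate check, no test between samples was possible, and intervals cover counting error only. The sources used here do not give the sex of the mice, any pooling of animals or the read depth.

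Pol II is recruited to a promoter by general transcription factors and Mediator, starts RNA synthesis, and at many genes pauses just downstream of the start before elongation factors release it. A Pol II immunoprecipitation therefore usually gives a peak at the promoter, and on genes with dense transcription also signal along the gene body. Medium spiny neurons are known for high levels of dopamine and cyclic AMP signalling genes, while every cell type needs the genes for splicing, translation and energy supply.

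RefSeq promoter sequences of 6 genes listed with Pol II were unlike each other in base composition. Phip, Spred1, Ngef and Bcl11b had some of the highest Pol II scores, Adcy5 had the third widest region, and Fos, the immediate early gene, had a score near the median of the list. Each run is the 150 bases before the RefSeq start, 5′ to 3′ on the gene's strand, in build GRCm38.p6, whereas the Pol II regions are in build mm9. Capitals mark matches, on either strand, to the GC box (GGGCGG), the ETS core (CGGAAG) or the CRE core (TGACG, from the cyclic AMP response element), and on the gene's strand to the TATA box (TATAAA).
Phip, chr9:82975490-82975639, minus strand: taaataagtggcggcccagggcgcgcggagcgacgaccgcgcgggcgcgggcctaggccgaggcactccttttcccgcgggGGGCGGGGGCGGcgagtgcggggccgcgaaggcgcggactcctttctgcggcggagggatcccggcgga
Spred1, chr2:117120921-117121070, plus strand: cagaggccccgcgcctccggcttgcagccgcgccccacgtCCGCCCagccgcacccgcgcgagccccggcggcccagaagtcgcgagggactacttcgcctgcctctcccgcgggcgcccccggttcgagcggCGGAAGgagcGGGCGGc
Adcy5, chr16:35154714-35154863, plus strand: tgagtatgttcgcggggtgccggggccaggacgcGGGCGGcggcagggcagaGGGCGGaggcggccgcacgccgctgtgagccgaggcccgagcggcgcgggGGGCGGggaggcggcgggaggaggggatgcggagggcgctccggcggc
Ngef, chr1:87573871-87574020, minus strand: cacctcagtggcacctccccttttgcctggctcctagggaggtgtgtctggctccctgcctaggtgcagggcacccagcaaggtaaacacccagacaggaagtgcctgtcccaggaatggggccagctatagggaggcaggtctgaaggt
Bcl11b, chr12:108003415-108003564, minus strand: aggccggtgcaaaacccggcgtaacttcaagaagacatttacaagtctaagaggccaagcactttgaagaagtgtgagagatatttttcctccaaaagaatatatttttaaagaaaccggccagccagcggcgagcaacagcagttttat
Fos, chr12:85473740-85473889, plus strand: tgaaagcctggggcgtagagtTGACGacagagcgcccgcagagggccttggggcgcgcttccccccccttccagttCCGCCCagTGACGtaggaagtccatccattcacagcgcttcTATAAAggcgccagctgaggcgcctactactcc
The Phip stretch held 26 CpG dinucleotides and 2 GC boxes, that of Spred1 held 25 CpG, and that of Adcy5 held 24 CpG and 3 GC boxes. The Bcl11b stretch held 6 CpG and the Ngef stretch 0, and neither held a searched motif. Fos had a TATA box that began 33 bases before the start and CRE cores 66 and 129 bases before it. These genes were chosen after their values were seen. Because the builds differ, it was not checked whether each stretch lies in the Pol II region of its gene, so a stretch may not be a site with Pol II.

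Most Pol II regions were narrow and much alike in width, and a small number were far wider. The authors' score, which ranks regions within the list and whose scale is not given in the sources used here, ran from 2.0 to 9.24 with a median of 2.78. The middle 50% of scores lay between 2.38 and 3.40, and the 1% of regions with the highest scores lay above 5.69. Width had a median of 4900 bp with quartiles of 4600 and 5300 bp, so that 57.3% of all regions were between 4600 and 5300 bp wide. At the narrow end, 604 regions were up to 4 kb wide, and their median score of 2.11 was close to the lowest listed. At the wide end, 177 regions were over 10 and up to 20 kb (2.27%, median score 4.29), and 30 were over 20 kb (0.385%, median score 5.63). The narrowest region had 2500 bp and the widest 193200 bp. Across the 7799 regions, score and width rose together (a Spearman rank correlation of 0.875, a description with no test, since both values come from the same library and the same region). How the authors set the ends of a region is not given in the sources used here, and its part in this relation was not tested.

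**Figure D1:**
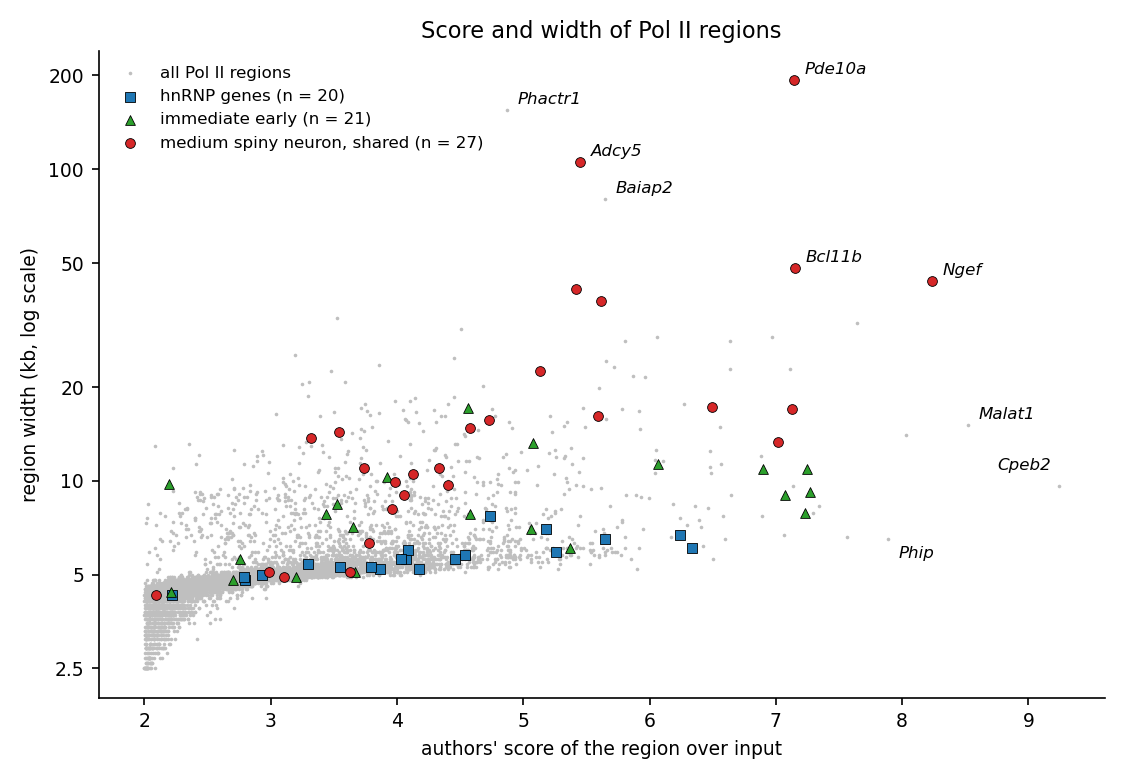
Authors' score of each Pol II region (x axis) against its width in kb (y axis, log scale). Grey points are all 7799 regions, and coloured symbols place genes of 3 lists by their highest score and widest region. Most regions form a narrow band near 5 kb, the hnRNP genes stay in that band up to a score of 6.34, and genes shared by medium spiny neurons reach 193.2 kb.

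The 20 highest scores joined ubiquitous regulators, striatal signalling genes, activity-dependent genes and noncoding RNAs. The highest, 9.24, lay over the start of Cpeb2, which encodes a binding protein of the cytoplasmic polyadenylation element, and of the lncRNA Gm7854 on the same region (mm9 chr5:43621501-43631100). Malat1, an abundant nuclear lncRNA, followed with 8.52 over 15.1 kb. Ngef, a guanine nucleotide exchange factor of neurons, had 8.24 over 43.7 kb. The miRNA gene Mir124a-1 had 8.03 over 14.0 kb. Phip (7.89, 6.5 kb), the transcription factor gene Sp3 (7.56, 6.6 kb) and the general transcription factor gene Gtf2a1 (7.06, 6.7 kb) reached such scores in narrow regions. The immediate early genes Jund, Egr1, Junb and Arc had 7.27, 7.25, 7.23 and 7.07, in regions of 7.9 to 10.9 kb. Among striatal genes, Bcl11b had 7.15, Pde10a 7.14 and Rasd2 7.13. Among the others were Vgf (7.34), a neurosecretory protein gene, Spred1 (7.29), an inhibitor of Ras signalling, Brd2 (7.13), a bromodomain reader of acetylated histones, and the region of Setd6 and Ndrg4 (7.11).

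The 20 widest regions were a different kind of place. Widths of marks given here are full widths of the 1 region of each mark that shares most bases with the Pol II region. Other regions of that mark are not counted, so these widths are not bases covered within the Pol II region. Pde10a, the striatal cyclic nucleotide phosphodiesterase, had Pol II over 193.2 kb (mm9 chr17:8991301-9184500), with an H3K4me3 region of 109.7 kb and an H3K27ac region of 27.6 kb. Phactr1, a phosphatase and actin regulator, had a Pol II region of 154.5 kb with a score of only 4.87. Its H3K4me3 region was 25.2 kb and its H3K27ac region 9.8 kb wide. A further Phactr1 region of 33.2 kb lay downstream on the same strand (mm9 chr13:43211601-43244800) and met no H3K4me3 and no H3K27ac region. Adcy5, the main adenylyl cyclase gene of the striatum, had a Pol II region of 105.2 kb, an H3K4me3 region of 44.5 kb and an H3K27ac region of 43.7 kb. At Baiap2, a postsynaptic scaffold gene, the Pol II region of 80.3 kb was nearly as wide as the H3K4me3 region of 84.8 kb, while the H3K27ac region had 14.5 kb. Bcl11b and the homeobox gene Meis2 also had a narrower Pol II than H3K4me3 region, 48.1 against 73.9 kb and 37.7 against 38.4 kb.
The region of Pde1b and Ppp1r1a spanned 41.2 kb and that of Dlx5 and Dlx6, homeobox genes of GABAergic neurons, 30.7 kb. Genes of ion pumps and of calmodulin followed, with 29 kb at Atp1b1, 28.2 kb at Atp2b1 and 23.2 kb at Calm2. Regions of 23.6 to 28.1 kb lay at Prr7 with Dbn1, Brms1 with Rin1 and B3gnt1, Lmo4, Agap2 and Rap1gap.

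The 10 lowest-scoring regions stood at the edge of the list. They belonged to Lsm4, Commd6, Thoc3, Blzf1 with Nme7, Tmem62, Sept3, Tmem115, Slc38a6 with Trmt5, Tbc1d25 and Rnd1, with scores of 2.0 and widths of 2.5 to 4.5 kb. Each of these 10 still met an H3K4me3 and an H3K27ac region, whose widths were 5.5 to 26.7 kb and 4.7 to 6 kb. A gene with a score just below 2 would not be listed, so absence from the list means below the authors' threshold and not absence of polymerase.

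Region by region, Pol II mostly lay inside regions of the active marks. All 4 lists are limited to 3 kb on each side of start sites and hold wider regions whole. They were thus drawn from the same places, and no expected share of overlap was computed. Of the 7799 regions, 7771 (99.6%, exact 95% interval 99.5 to 99.8%) met an H3K4me3 region by at least 1 bp and 7584 (97.2%, 96.9 to 97.6%) met an H3K27ac region. H3K27me3, the Polycomb mark, was met by 928 (11.9%, 11.2 to 12.6%), and by 258 (3.31%) when at least 0.5 of the narrower region had to be shared. Pol II lay wholly inside an H3K4me3 region in 92.8% and wholly inside an H3K27ac region in 67.2% of cases. Divided into 5 bins of score, from the lowest to the highest, H3K27ac was met by 91.8, 97.2, 98.5, 99 and 99.8% of regions. Over the same bins H3K27me3 was met by 19.1, 16.3, 12.3, 7.37 and 4.36%. The share over 10 kb wide rose from 0.128% to 10.4% between the lowest and the highest bin, and the median width from 4300 to 5700 bp. In sorted nuclei from a mixture of cells, fewer cells with polymerase and less polymerase per cell cannot be told apart, and the same holds for marks that meet in 1 region.

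**Figure D2:**
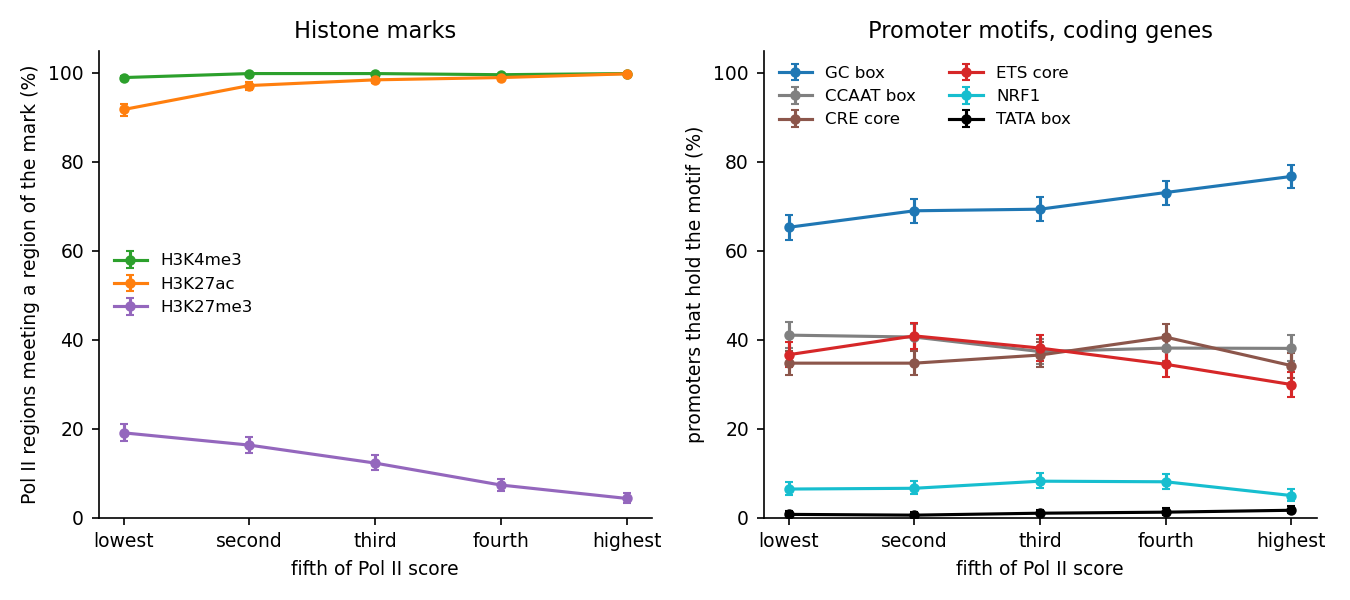
Share of Pol II regions that meet a region of each histone mark (left) and share of coding-gene promoters that hold each motif (right), for 5 equal bins of Pol II score from lowest to highest. Bars are exact 95% intervals. H3K27me3 fell from 19.1% to 4.36% and the GC box rose from 65.3% to 76.7%, while the ETS core was lowest in the highest bin.

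The ends of Pol II regions were not placed evenly within the histone regions. In 6606 regions with genes on 1 strand, Pol II ended a median of 400 bp short of the H3K4me3 region on the upstream side (quartiles 200 and 700 bp). On the downstream side it ended 1400 bp short (quartiles 900 and 2700 bp). Against H3K27ac, in 6435 regions, the gaps were 100 bp upstream and 400 bp downstream, and the median width of Pol II was 0.898 times that of H3K27ac. Regions over 10 kb differed: against H3K27ac they ended a median of 300 bp short upstream but ran 1800 bp beyond it downstream, and 65.2% of 158 ran beyond it. Against H3K4me3, 36.6% of 161 such regions ran beyond the downstream end, against 1.02% of narrower regions. Beyond the upstream end the shares were 13.7% and 5.52% for H3K4me3, and 24.7% and 27.8% for H3K27ac. These groups were split by Pol II width, which itself enters the position of the ends, and its part in the shares was not tested. All ends lie on a grid of 100 bp, and each list has its own library and threshold, so the lengths of these gaps depend on the authors' settings as well.

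**Figure D3:**
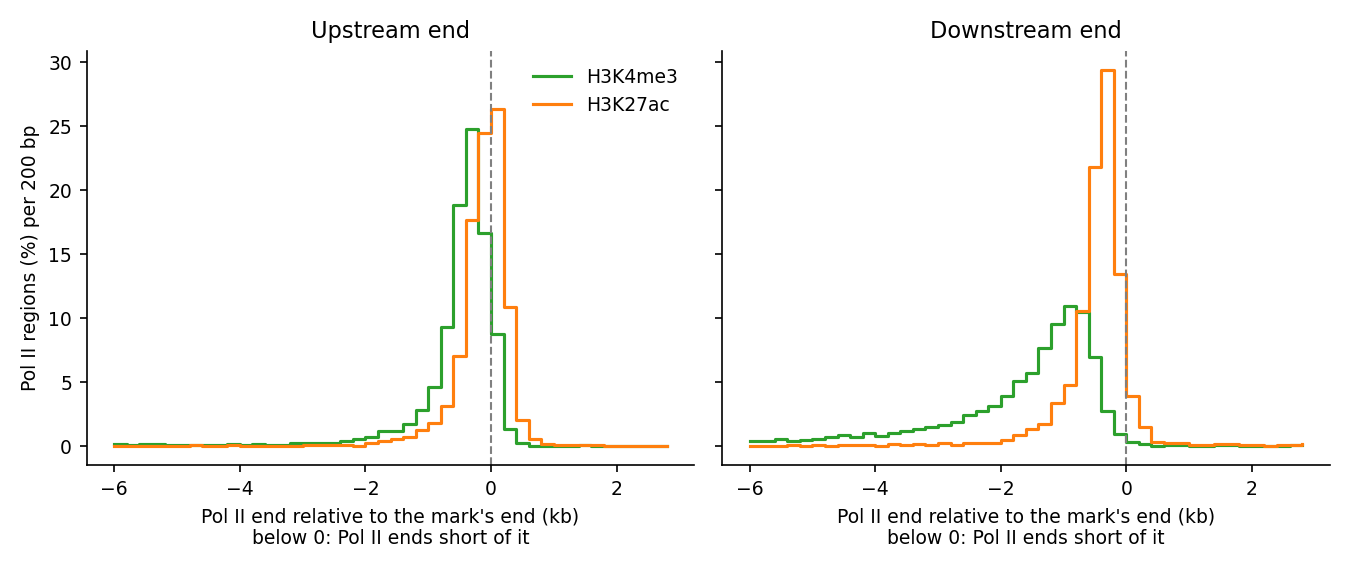
Distance from the end of a Pol II region to the end of the H3K4me3 or H3K27ac region it meets (x axis, kb), on the upstream (left) and downstream side (right), as a percentage of regions per 200 bp. Values below 0 mean that Pol II ended first, and equal ends fall in the bin that begins at 0. The downstream gap to H3K4me3 is the broadest, with a median of 1400 bp.

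Few Pol II regions lacked H3K27ac (215) and fewer lacked H3K4me3 (28). The highest-scoring region without either was at Hipk4, a kinase gene, with a score of 4.75 over 17 kb (mm9 chr7:28304201-28321200). Rxfp4, Afap1, Pycard and the second Phactr1 region also met neither mark, with scores of 4.10, 3.48, 3.27 and 3.52. Ankk1, a kinase gene next to the dopamine receptor gene Drd2, had a 13.6 kb Pol II region (score 3.56) that met no active mark and a 102 kb H3K27me3 region. Olfr90 (3.26, 12.3 kb), Slc12a3 with Mir138-2 (3.14), Bcl2l10 (2.83) and Mir674 (2.71) completed the 10 highest without H3K4me3. Hsd3b7, Klhl34, Zfp518a and Igf2bp3 had H3K4me3 without H3K27ac, at scores of 3.47 to 3.93. Whether any of these regions lies in the body of a neighbouring gene was not tested.

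Where Pol II met H3K27me3, the highest scores belonged to Hpca with Tmem54 (5.65), Eif4a2 (5.47), Penk (5.38) and Hmgb1 (5.28). Hpca encodes the neuronal calcium sensor hippocalcin, and Penk the enkephalin precursor of indirect-pathway neurons. The Penk Pol II region had 11.3 kb and the H3K27me3 region that it met had 19.4 kb. The region of Hic1, Mir132 and Mir212 had 4.88, Mxi1 with 4.74, Med13l with 4.65, Sp9 with 4.53 and Mn1 with 4.47. Each of these named regions also met H3K4me3 and H3K27ac.

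By gene, 8773 of 21031 protein-coding genes had at least 1 Pol II region (41.7%, 41.0 to 42.4%), and this is the background for every list below. A gene takes the score of its highest and the width of its widest region. Of all coding genes with Pol II, the top 20% by score had at least 3.57, and 3.27% had a region over 10 kb. Of the 43 lists, 28 had a larger share with Pol II than 41.7% and 15 a smaller one. The lists were described by counts, not tested.

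**Figure D4:**
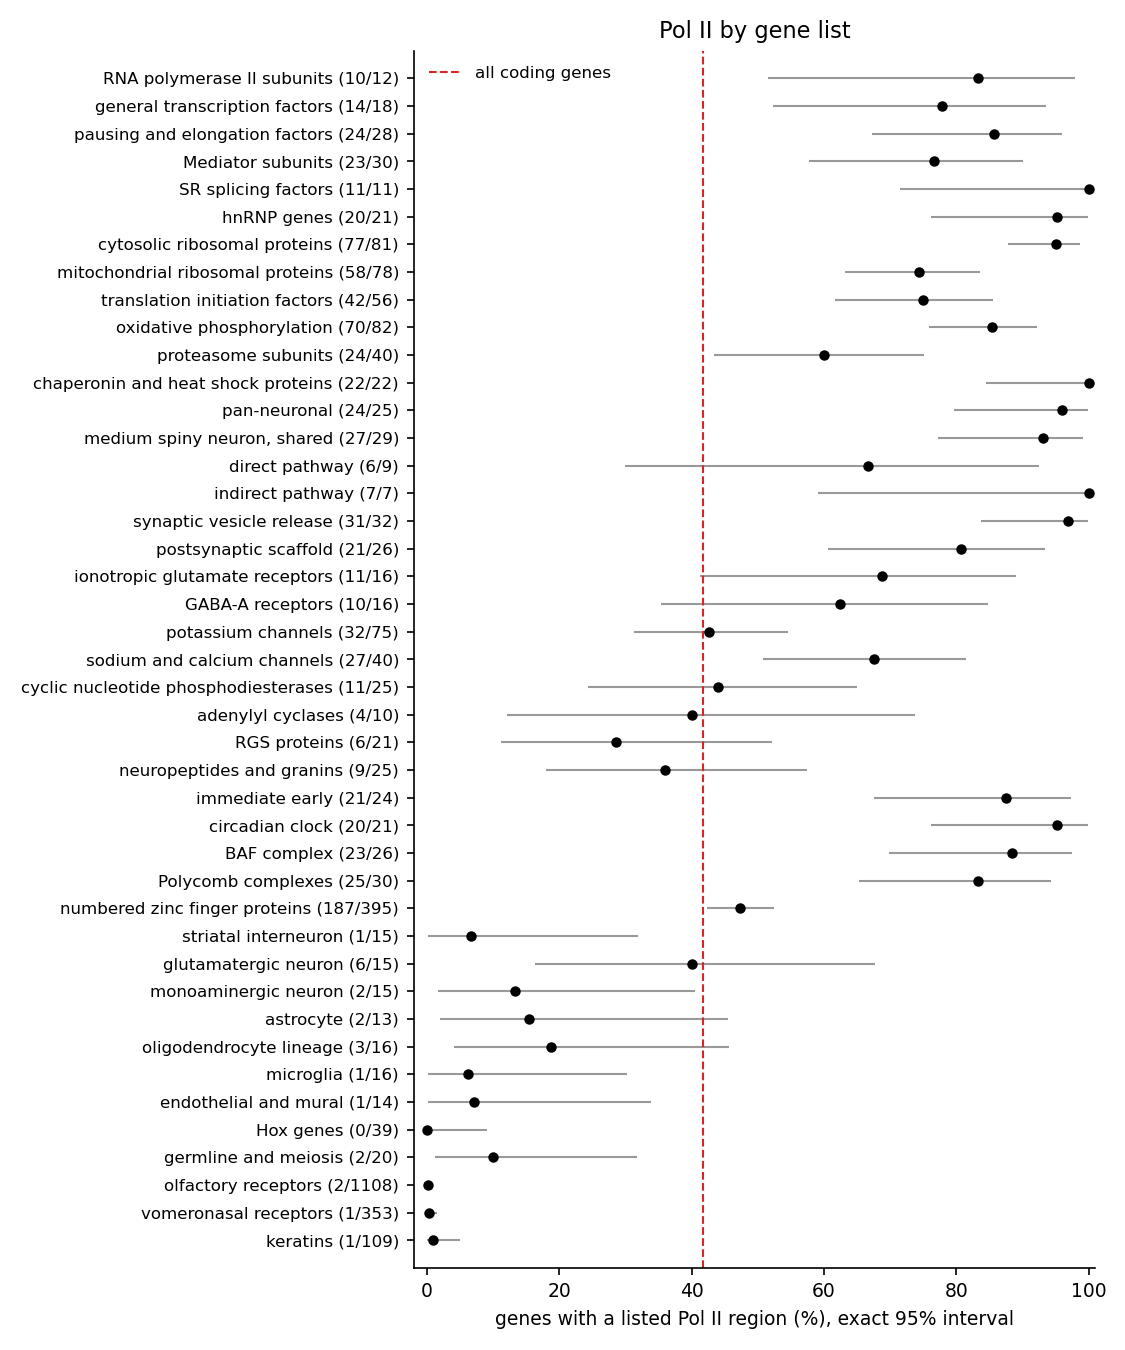
Percentage of the genes of each of 43 lists with a listed Pol II region (points) with exact 95% intervals (bars). Counts stand in brackets and the dashed line is the 41.7% of all coding genes. The SR, chaperone and indirect-pathway lists are at 100%, and glial, vascular, Hox and chemosensory receptor lists lie left of the line. The bars of the astrocyte and oligodendrocyte lineage lists cross it.

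The transcription machinery itself was mostly listed, at modest scores. Of 12 Pol II subunit genes 10 had a region, with a median score of 2.44 against 2.79 for all coding genes with Pol II. Polr2a, the catalytic subunit, had the highest (4.15), while Polr2g and Polr2i had none. Of 18 general transcription factor genes 14 were listed. Gtf2a1 (7.06) stood far above the next, Tbp, the TATA-binding protein (3.5). Of 28 pausing and elongation genes 24 were listed, with a median of 2.95. Their highest were Cdk13 (6.17), Mepce (4.75), which caps 7SK RNA, Hexim1 (4.41), an inhibitor of P-TEFb, and Aff4 (4.27), a scaffold of the super elongation complex. Of 30 Mediator genes 23 were listed with a median of 2.49, led by Med13l (4.65).

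Genes that process RNA had higher scores, but not wide regions. All 11 SR splicing factor genes had Pol II with a median score of 3.79, led by Srsf2 (5.53) and Srsf7 (5.37), and 6 of them (54.5%) were in the top 20%. Of 21 hnRNP genes, which encode RNA-binding proteins of pre-mRNA, 20 had Pol II with a median of 4.08, and 14 (70.0%) were in the top 20%. Hnrnpu had 6.34 in a region of 6.1 kb and Hnrnpa2b1 had 6.24 in 6.7 kb, and no hnRNP region was wider than 7.7 kb. Chaperonin and heat shock genes were listed in 22 of 22 cases with a median of 3.61, and Hsp90ab1 (6.55, 14.9 kb) and Hspa8 (5.32, 11.8 kb) were the 2 of them over 10 kb.

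Other housekeeping lists had many genes with Pol II at ordinary scores. Cytosolic ribosomal protein genes had it at 77 of 81 (median 2.91), oxidative phosphorylation genes at 70 of 82 (2.71), translation initiation factors at 42 of 56 (2.89), mitochondrial ribosomal proteins at 58 of 78 (2.66) and proteasome subunits at 24 of 40 (2.67). In the ribosomal list 15.6% were in the top 20%, and the highest, Rpl18 (6.64), shares a 22.9 kb region with the clock gene Dbp and 3 other genes. Those without Pol II included paralogs such as Rpl10l and Rpl39l, and muscle or testis forms of cytochrome oxidase, Cox6a2 and Cox6b2. They were not only such forms, since Cox6b1, Mrpl10, Eif3g, Eif3k and Psma1 were without it as well. The paralog Rpl3l was listed, in a region shared with Rps2. Numbered zinc finger genes, with 187 of 395 (47.3%, 42.3 to 52.4%), lay a little above the background of 41.7%.

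Chromatin regulators were listed often. Of 26 BAF complex genes 23 had Pol II, with Arid1b (6.39), Arid1a (5.61) and Arid2 (5.44) highest. Of 30 Polycomb genes 25 had it, among them Mtf2 (4.54) and Jarid2 (4.40).

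Genes shared by both kinds of medium spiny neuron had the largest median width of the 43 lists. Of 29 such genes 27 had Pol II, with a median score of 4.40 and a median width of 13700 bp, against 4900 bp for all coding genes. In 18 of the 27 (66.7%) the region was over 10 kb, against 3.27%, and 22 (81.5%) were in the top 20% by score. Ngef, Bcl11b, Pde10a, Rasd2 and Arpp21 had scores of 6.49 to 8.24 and widths of 17 to 193.2 kb. Foxp1 and Ryr3 were in none of the 4 antibody lists, so whether their transcripts were searched is not known. Between scores of 3.5 and 5.5, the median width was 11000 bp for 15 of these genes and 5700 bp for all 1808 coding genes in that range. In the same range it was 5600 bp for 12 hnRNP genes and 5300 bp for 11 chaperone genes. For 18 pan-neuronal genes it was 7350 bp and for 9 immediate early genes 7800 bp. The list was written with genes known from this tissue and from earlier results on these libraries, so that its position is a description.

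Direct- and indirect-pathway genes, which separate the neurons with D1 and D2 dopamine receptors, had middling scores. All 7 indirect-pathway genes had Pol II. Penk had 5.38, the transcription factor gene Sp9 4.53, Gpr6 4.07, Gpr52 3.28, the adenosine receptor gene Adora2a 2.63, Drd2 2.44 and Ptprm 2.27. Of 9 direct-pathway genes 6 had it, Isl1 with 3.97, Drd1 with 3.79, the muscarinic receptor gene Chrm4 with 3.30, Tac1 with 2.93, Ebf1 with 2.87 and Slc35d3 with 2.56. The dynorphin precursor gene Pdyn, Eya1 and Sfxn1 were not listed. An H3K27me3 region was also listed for all 6 direct-pathway genes with Pol II and for 6 of the 7 indirect-pathway genes. It was listed for the 3 direct-pathway genes without Pol II too, and the share of all coding genes was not computed. Widths were large for these scores at Chrm4 (18.7 kb, a region shared with Mdk), Drd1 (16.3 kb), Sp9 (14.1 kb), Gpr52 (13.3 kb) and Tac1 (12.5 kb).

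**Figure D5:**
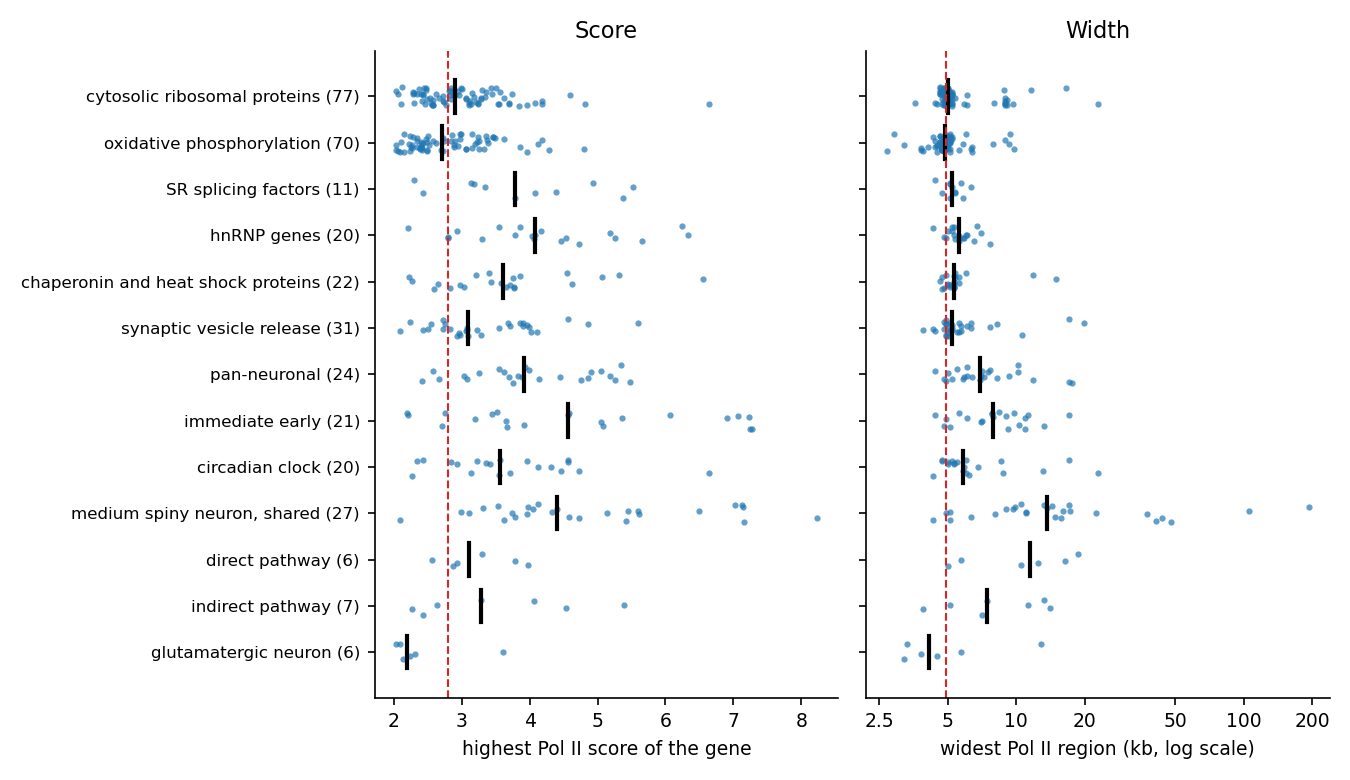
Highest Pol II score (left) and widest Pol II region in kb (right, log scale) of each listed gene in 13 lists, with the number of listed genes in brackets. Points are genes, black bars are list medians, and dashed lines are the medians of all coding genes with Pol II (2.79 and 4900 bp). The hnRNP genes are high in score, with a median width of 5600 bp. The immediate early genes (median 7900 bp) and the genes shared by medium spiny neurons (13700 bp) are high in both.

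Of 25 pan-neuronal genes 24 had Pol II, with a median score of 3.91 and a median width of 6950 bp, and 5 of the 24 (20.8%) were over 10 kb. Rbfox3, the gene of the NeuN antigen on which nuclei were sorted, had 4.90 over 7.5 kb. Nrgn (5.47, 17.1 kb), the calmodulin-dependent kinase gene Camk2a (5.34, 10.2 kb) and the AMPA receptor gene Gria2 (5.26, 11.9 kb) were highest, and Elavl4 was not listed. Synaptic vesicle genes had it at 31 of 32 (median 3.10), led by Cplx2 (5.60, 19.9 kb) and Snap25 (4.87, 8.2 kb), with Stx1a absent. Postsynaptic scaffold genes had it at 21 of 26 (median 3.57), led by Homer1 (6.90) and Baiap2 (5.65).

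Receptor and channel families were split by subunit. Of 16 ionotropic glutamate receptor genes 11 had Pol II, from Gria2 (5.26), Grin2b (4.93) and Grin2a (4.68) down to Grik4 (2.03), and Grin2c, Grin2d, Grin3a, Grin3b and Grik1 had none. Of 16 GABA-A receptor genes 10 had it, led by Gabra2 (4.88) and Gabrb2 (4.33), while Gabra3, Gabra6, Gabre, Gabrg1, Gabrp and Gabrq had none. Potassium channels had it at 32 of 75 (42.7%), close to the background, led by Kcna1 (4.75). Sodium and calcium channels had it at 27 of 40, led by Scn4b (5.14, 22.5 kb), a sodium channel beta subunit.
Families of cyclic nucleotide and G protein signalling had shares near or below the background, and some members with wide regions. Adenylyl cyclases had it at 4 of 10, Adcy5 with 5.45, Adcy9 with 4.0, Adcy1 with 2.93 and Adcy3 with 2.47, over 105.2, 5.9, 4.9 and 4.8 kb. Phosphodiesterases had it at 11 of 25, with Pde10a (7.14), Pde1b (5.42) and Pde2a (4.30) highest. RGS genes, whose products shorten G protein signals, had it at 6 of 21, led by Rgs2 (5.54) and Rgs4 (4.48), and Rgs9, the striatal member, had 3.54 over 14.3 kb. Neuropeptide and granin genes had it at 9 of 25, led by Vgf (7.34), Penk (5.38) and Chgb (4.11), while Cartpt, Cck and Crh had none.

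Immediate early genes, which neurons switch on after activity, had the highest median score of the lists with more than 1 listed gene, 4.57 over the 21 of 24 that were listed. In this list 14 of the 21 (66.7%) were in the top 20% and 6 (28.6%) were over 10 kb. Jund, Egr1, Junb and Arc were above 7, Homer1 had 6.90 and Npas4, a transcription factor of active neurons, 6.07 over 11.3 kb. The 2 best-known members of the Fos family, looked up after the values were seen, were much lower, Fosb with 3.20 and Fos with 2.76 over 5.6 kb. Atf3, Ier2 and Maff were not listed, and all 3 had H3K27me3, as had 5 of the 21 listed genes. Circadian clock genes had Pol II at 20 of 21, with a median of 3.56. Dbp (6.64, in the shared region named above), Tef (4.72), Clock (4.57) and Per1 (4.57, a 17.1 kb region shared with Vamp2) led them. The hour at which tissue was taken is not given in the sources used here.

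Genes of other cells of the striatum were mostly absent from the list. Of 16 oligodendrocyte lineage genes 3 had Pol II, Myrf (2.32), Mbp (2.24) and Cnp (2.22), and of 13 astrocyte genes 2 had it, Slc4a4 (2.80) and Slc1a2 (2.18). Of 16 microglial genes only Cd68 was listed, in a region shared with Eif4a1 (4.93) and in a separate one (2.03). Of 14 endothelial and mural genes only Vtn, in a region shared with Sarm1 (2.71). Gfap, Aqp4, Olig1, Olig2, Sox10, Cx3cr1, Csf1r, P2ry12, Cldn5 and Pecam1 had no listed region. Of 15 interneuron genes only Lhx8 was listed (2.40), and Chat, Sst, Npy, Pvalb, Th and Nos1 were not.
Of 15 glutamatergic neuron genes 6 had Pol II (40%, near the 41.7% of all coding genes). Fezf2, Neurod2, Cux2, Tbr1 and Eomes had scores of 2.03 to 2.31, and the remaining gene had 3.60, within the top 20%. In 1 of the 6 the region was over 10 kb. An H3K27me3 region was listed for all 15 genes, with or without Pol II. Other lists were much alike in this, with 14 of 15 interneuron, 14 of 15 monoaminergic and 13 of 14 endothelial and mural genes. For astrocyte, oligodendrocyte lineage and microglial genes it was 12 of 13, 12 of 16 and 11 of 16. The share of all coding genes with an H3K27me3 region was not computed. The monoaminergic genes listed were Slc18a1 (3.53) and Pitx3 (2.20), both in regions shared with a widely expressed neighbour, Atp6v1b2 and Gbf1.

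Families of other tissues were nearly empty. Pol II was listed at 0 of 39 Hox genes, which allows a share of up to 7.69%. It was listed at 2 of 1108 olfactory receptor genes (Olfr90 and Olfr867), 1 of 353 vomeronasal receptor genes (Vmn2r29) and 1 of 109 keratin genes (Krt10). Of 20 germline genes only Gdf9 and Tex14 were listed, Gdf9 in a region shared with Uqcrq and Tex14 in one shared with Rad51c.

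Some regions could not be given to 1 gene. Of the 7799 regions 6412 (82.2%) were listed for 1 gene, 1166 (15.0%) for genes on both strands, and 221 (2.83%) for several genes on 1 strand, of which 16.3% were over 10 kb. The most genes, 8, lay in an 8.9 kb region that holds the ribosomal protein gene Rpl13a, 5 snoRNA genes and Mir150. The region of Rps2 and Rpl3l and that of the Mir17hg cluster each had 7 genes. Conversely 8990 genes had 1 region, 163 had 2 and 5 had 3. Those with 3 were Pde4dip, Celf2, Rpl23a, Snord58b and Mir106b. Snord58b was listed on 2 chromosomes, so which copy was meant is uncertain.

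Along the chromosomes, the share of coding genes with Pol II ran from 28.0% on X (25.1 to 31.0%) to 55.2% on chromosome 12 (51.2 to 59.2%), apart from 2 of 78 genes on Y. Chromosome 7 had 31.1%, and 39.3% without its 416 olfactory and vomeronasal receptor genes. On X the share was 28.2% without such genes.

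The list also held 385 noncoding genes, of which 191 were lncRNA, 77 miRNA and 65 snoRNA genes. Among the 10 highest were Gm7854, Malat1, Mir124a-1, Mir9-2 with C130071C03Rik, Gm13375 beside Arhgap21 (6.59), Mir124a-3, and 2900092D14Rik with Pantr1 beside Pou3f3 (6.04). The neuronal miRNAs miR-124 and miR-9 are each made from 3 genes, and these differed widely. Mir124a-1 had 8.03, Mir124a-3 had 6.57 over 11.3 kb and Mir124a-2 had 4.68 over 20.2 kb. Mir9-2 had 6.97 over 29 kb, Mir9-3 had 3.30 over 20.7 kb and Mir9-1 had 2.14 over 3.8 kb, so the same mature sequence is encoded at loci far apart in score. The region of Mir132 and Mir212, miRNAs that respond to neuronal activity, had 4.88 over 11.0 kb, and Mirlet7i had 4.85 over 6.4 kb. The mature RNAs miR-9, miR-132, miR-212 and let-7i are shown from RefSeq, with the seed (bases 2 to 8) in capitals, because the seed sets which transcripts a miRNA binds.
miR-9-5p: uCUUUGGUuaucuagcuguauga
miR-132-3p: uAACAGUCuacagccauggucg
miR-212-3p: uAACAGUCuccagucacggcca
let-7i-5p: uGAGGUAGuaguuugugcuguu
miR-132-3p and miR-212-3p have the same seed and come from the same Pol II region. Of the 77 miRNA genes 72 had a sequence in the table. The let-7 seed GAGGUAG recurred in 5 listed genes, with scores of 2.11 to 4.85. The miR-17 seed AAAGUGC recurred in 4, Mir17, Mir20a, Mir93 and Mir106b, with scores of 2.49 to 2.99. The list does not separate a miRNA gene from a host gene whose start lies in the same region.

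Promoter sequence differed between genes with and without Pol II, and along the score. RefSeq promoters of 300 bases (250 before to 50 after the start) were compared for the 14153 coding genes with 1 promoter in the table, of which 5627 had Pol II. The median number of CpG dinucleotides was 24 with Pol II, 15 with H3K4me3 but no Pol II and 3 with neither. It rose from 20 in the lowest to 28 in the highest of 5 score bins. The GC box, which Sp1-family proteins such as Sp3 bind, was in 70.6% of promoters with Pol II, 56.5% with H3K4me3 alone and 12.4% with neither. It was in 46.8% of the 14153 promoters compared and in 35.7% of all 32851 promoters in the table. It rose with score from 65.3% to 76.7%.
The ETS core was in 36.2% of promoters with Pol II, 19.9% with H3K4me3 alone and 6.94% with neither (21.9% of those compared, 16.9% of all promoters). Over the 5 score bins it was 36.7, 40.9, 38.2, 34.5 and 30.0%, and in the 5% of genes with the highest scores it was 32.3%. The NRF1 site (GCGCATGC, both strands) was in 6.91, 2.58 and 0.753% (3.67% of those compared, 2.71% of all). Over the score bins it was 6.47, 6.64, 8.24, 8.11 and 5.01%. In the 5% of genes with the highest scores it was 2.76% of 254, and 4.93% of 345 when genes with several promoters were added. The CRE core was in 36.2, 23.3 and 10.6% (24% of those compared, 20.8% of all). The GC box, ETS core, NRF1 site and CRE core all contain CG, so that their shares move with the CpG count, and its part in them was not tested. The CCAAT box (CCAAT, both strands), which has no CG, was in 39.1, 39.5 and 41.3% (40% of those compared, 37.4% of all).
The TATA box, searched 45 to 15 bases before the start, was rarer with Pol II, 1.07% against 2.77% with H3K4me3 alone and 6.57% with neither (3.41% of those compared, 2.14% of all). Among genes with Pol II it was in 0.777% of the lowest and 1.70% of the highest score bin (exact 95% intervals 0.356 to 1.47% and 1.01 to 2.68%). In genes with regions over 10 kb it was in 6 of 176 (3.41%, 1.26 to 7.27%), against 0.991% of the others. Fos, shown above, is a TATA promoter with a score of 2.76, and Phip is a CpG-rich promoter without that box at 7.89. Letters of different motifs may overlap, and a match is a run of letters, not a bound site.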

How the data were processed

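Chromatin immunoprecipitation with sequencing was done once per antibody, with 1 input library. The submitters' processing notes name MACS 1.4, Bowtie 0.12.7 and the build mm9 without saying what each did. The deposited lists give each region with a RefSeq transcript, a gene symbol and a score made by the authors. The scale of that score is not given in the sources used here, and it served only to order or select regions of 1 list. The lists cover 3 kb on each side of start sites and hold wider regions whole. Depth is unknown.

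Unique regions were taken by position (counted from 1 here). Of 11683 lines, 98.0% matched a gene table of GRCm38.p6 by transcript accession, 209 matched by symbol and 30 did not match. The background was 21031 coding genes with a curated transcript. Regions shared at least 1 bp to count as meeting. Shares carry exact Clopper-Pearson 95% intervals, and no p-value was computed. The limit for a count of 0 is 3 of the total. Motifs were counted in RefSeq promoters of GRCm38.p6. The scripts were tested on simulated data. Values were computed in Python 3.11.15 with pandas 2.3.3, numpy 2.4.6 and scipy 1.17.1, and drawn with matplotlib 3.10.9.

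The list and the 43 gene lists (24 by symbol, 19 by pattern) were chosen with earlier results of these data known. Named genes were those of the 20 highest and 20 widest regions, the 10 lowest, the 5 with most genes, the 10 genes with most regions, the 10 highest without H3K27ac, without H3K4me3 or with H3K27me3, and the 10 highest noncoding genes. From lists of 16 or fewer genes all could be named, from longer ones the 6 highest and 6 without a region. Other names were chosen after their values were seen. Alternatives were another score floor, matching, background, unit and overlap, and 2 added after seeing the data, regions with 1 gene and any promoter of a gene. Some genes that these rules would name are left out of the text.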

Additional observations from a re-analysis of the deposited data

How the results depend on the processing

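With the upper 50% of Pol II regions by score, 21.2% of coding genes had Pol II instead of 41.7%, the median width was 5200 bp instead of 4900 bp and 0.769% of regions were over 20 kb instead of 0.385%. With all genes that have a curated transcript as background the share was 34.9%. With the upper 50% of the histone regions, 75.7% of Pol II regions met H3K4me3, 60.7% met H3K27ac and 7.03% met H3K27me3. Requiring 0.5 of the narrower region gave 99.4% for H3K4me3 and 3.31% for H3K27me3. In regions with 1 gene, the rank correlation of score and width was 0.887. Matching by symbol alone left all 43 list shares within their intervals. The upper 50% by score moved 21 of 43 list shares out of theirs. It put proteasome subunits (20%) and numbered zinc finger genes (20.8%) below the 21.2% of all coding genes, where the full list had them above, and adenylyl cyclases (30%) and RGS proteins (28.6%) above it, where the full list had them below. With only regions listed for 1 gene, a comparison added after seeing the data, 60.9% of genes shared by medium spiny neurons, 15.0% of pan-neuronal and 25% of immediate early genes with Pol II were over 10 kb. Taking any promoter of genes with several, also added, gave 73.0% for the GC box and 37.7% for the ETS core. The lists hold no depth, so the number of listed regions, and which genes fall under the score floor, cannot be separated from sequencing depth. No paired analysis was possible because each antibody had 1 library.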
